A study of Homo sapiens with 2 samples.

Results

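The mitochondrially encoded genes were taken as every entry of the deposited gene table that lies on chromosome MT, 37 of 58735 genes. They comprised 13 mRNAs, 2 rRNAs and 22 tRNAs, and all 37 had the position and strand of GENCODE release 29 on hg38. At least 1 read was found for 36 of them, and MT-TQ, the glutamine tRNA, was listed at 0 in both libraries. The libraries came from U87MG, an established human glioblastoma line labelled as brain tissue and grown as glioma spheres under stem cell conditions for a week. The cells had received lentivirus with a control shRNA in the pGIPZ vector (pGIPZ-CTRL) or an shRNA against TRIP13, an ATPase that acts in the spindle checkpoint, and both groups went through puromycin selection for stable clones. How many clones each library held is not given in the sources used here, and puromycin selection and stem cell medium are shared by both groups.

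Each group was represented by 1 library, so no difference given here has a replicate error or a test, and each describes a pair of libraries rather than a condition. TRIP13 had 23.1 FPKM under the TRIP13 shRNA label and 11.9 FPKM under the control label, a ratio of 1.95 (95% exact counting interval 1.79 to 2.12) and the reverse of what a knockdown gives, so "the library labelled TRIP13 shRNA" is used throughout for the former. Exchanged labels, a knockdown without effect and other differences between the clones or libraries cannot be told apart here. Exchanged labels would turn every direction given below. Values joined by "against" name that library first and the control second. Among 9 astrocyte and glioma stem cell markers, 4 reached a mean of 1 FPKM and lay lower under the TRIP13 shRNA label. VIM differed little, at 427 against 442 FPKM, a ratio of 0.966 (0.953 to 0.979). The others were SLC1A3 at 7.91 against 10.6, NES at 2.21 against 5.23 and OLIG2 at 0.339 against 2.72. Beside these few genes, 60.2% of protein-coding genes that reached this mean were higher under that label. SOX2, PROM1, S100B and AQP4 had at most 5 reads in either library and GFAP 28 against 92, so most defining markers of the labelled cells were at or near 0. The totals were 19903836 against 18871063 reads, a depth ratio of 1.05.

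The human mitochondrial genome is a small circle present in many copies per cell. Both of its strands are transcribed into long precursors, which are cut mainly at the tRNAs that lie between the other genes, so that mRNAs, rRNAs and tRNAs come from common transcripts. Its mRNAs encode core subunits of respiratory complexes I, III and IV and of the ATP synthase, and its rRNAs and tRNAs serve the ribosome inside the organelle, while all other proteins of these machines come from nuclear genes.

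Most genes follow one another on the plus strand of the reference, and MT-ND6 and 8 tRNAs lie on the minus strand. The tRNA sequences below are the GENCODE release 29 reference, shown because these 10 tRNAs either had the highest levels or passed a 2-fold difference. The anticodon, found as the expected triplet in a 7-base loop between paired arms, is in capitals, and all other bases are in lower case.

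MT-TC (cysteine, chromosome MT, 5761 to 5826, minus strand): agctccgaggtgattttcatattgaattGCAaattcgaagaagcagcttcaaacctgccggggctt
MT-TN (asparagine, 5657 to 5729, minus strand): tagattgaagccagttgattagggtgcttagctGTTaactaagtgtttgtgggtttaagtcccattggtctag
MT-TP (proline, 15956 to 16023, minus strand): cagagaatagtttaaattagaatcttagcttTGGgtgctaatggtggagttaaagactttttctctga
MT-TY (tyrosine, 5826 to 5891, minus strand): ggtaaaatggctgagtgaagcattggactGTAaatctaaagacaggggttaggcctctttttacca
MT-TL1 (leucine, 3230 to 3304, plus strand): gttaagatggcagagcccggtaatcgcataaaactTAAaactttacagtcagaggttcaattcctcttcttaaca
MT-TV (valine, 1602 to 1670, plus strand): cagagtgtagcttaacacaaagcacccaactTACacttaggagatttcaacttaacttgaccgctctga
MT-TM (methionine, 4402 to 4469, plus strand): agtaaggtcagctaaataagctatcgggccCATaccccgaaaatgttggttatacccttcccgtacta
MT-TW (tryptophan, 5512 to 5579, plus strand): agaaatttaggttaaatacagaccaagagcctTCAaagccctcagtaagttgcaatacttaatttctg
MT-TK (lysine, 8295 to 8364, plus strand): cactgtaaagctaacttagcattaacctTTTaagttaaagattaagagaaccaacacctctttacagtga
MT-TI (isoleucine, 4263 to 4331, plus strand): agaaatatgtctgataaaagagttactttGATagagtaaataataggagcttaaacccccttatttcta

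Transcripts of the mitochondrial genome made up more of the library labelled TRIP13 shRNA than of the control, and the classes differed in direction. The mRNAs took 3.99% of its reads (95% exact binomial interval 3.983 to 4.0004) against 3.47% (3.46 to 3.47). The tRNAs took 0.0295% (0.0287 to 0.0302) against 0.0213% (0.0206 to 0.0219). The rRNAs went the other way, at 0.382% (0.379 to 0.385) against 0.508% (0.504 to 0.511). These intervals, like all others here, cover counting error only, because each group had 1 library. Nothing in the sources used here describes molecular identifiers, without which reads are not independent molecules. The intervals may therefore be too narrow even for counting error. In bulk RNA, fewer cells that carry a transcript and less of it per cell cannot be told apart, and nor can the number of mitochondrial genomes and the output of each. Of the mitochondrial reads alone, mRNAs made up 90.7% against 86.8%, rRNAs 8.68% against 12.7% and tRNAs 0.670% against 0.532%.

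The deposited FPKM values relate fragments to gene length and to a total that was the same for both libraries, so an FPKM ratio equals a ratio of reads and carries the depth ratio of 1.05. Differences per gene are also given as log2 ratios of FPKM + 1. Pooled over the 13 mRNAs, the FPKM ratio was 1.21 (95% counting interval from the split of reads 1.21 to 1.22), and 1.15 when each library was divided by its own total. For the rRNAs these ratios were 0.794 (0.786 to 0.802) and 0.753, and for the tRNAs 1.46 (1.41 to 1.52) and 1.39. The rRNA reads per mRNA read, a measure that needs no scaling between libraries, stood at 0.0957 against 0.146. The control quotient was thus 1.53-fold the other (95% Woolf interval 1.51 to 1.55, counting error only).

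**Figure D1:**
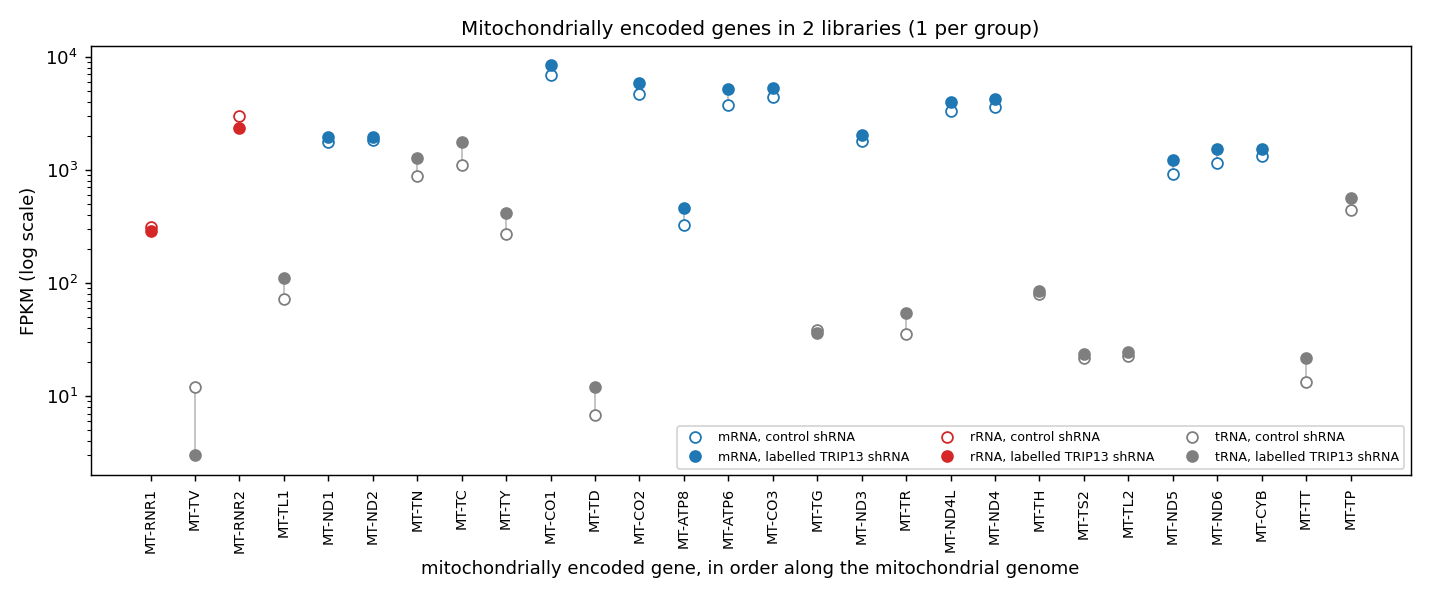
FPKM (log scale) of the 28 members with values given, in order along the mitochondrial genome, with open circles for the control library and filled circles for the library labelled TRIP13 shRNA, coloured by class. MT-CO1 is highest at 8374 against 6833 FPKM, all 13 mRNAs are higher in the library labelled TRIP13 shRNA, and both rRNAs are lower.

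The 13 mRNAs all had log2 ratios above 0, from 0.10 for MT-ND2 to 0.50 for MT-ATP8, with a median of 0.27. Over the 10671 protein-coding genes whose mean FPKM reached 1, 60.2% lay above 0 and the median was 0.12. With own totals all 13 mRNAs remained above 0, as did 55.1% of the protein-coding genes. With the median ratio of protein-coding genes set to 1, 11 of the 13 lay above 0, and MT-ND1 and MT-ND2 did not. Under that scaling about as many protein-coding genes lay above 0 as below (median log2 ratio -0.0017). None of the 13 was 2-fold higher or lower (log2 ratio at or beyond 1 or -1). These thresholds were passed by 2.17% (higher) and 4.19% (lower) of protein-coding genes, and for so few genes none is near these shares.

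The genes of complex IV, cytochrome c oxidase, which passes electrons to oxygen, held the top 3 levels of all genes in both libraries. MT-CO1, its catalytic subunit (ENSG00000198804, chromosome MT, 5904 to 7445), had 8374 against 6833 FPKM, from 250249 against 204204 reads. Its FPKM ratio was 1.23 (1.22 to 1.23). MT-CO2, a copper-bearing subunit that takes electrons from cytochrome c (7586 to 8269), had 5845 against 4703 FPKM, a ratio of 1.24 (1.23 to 1.26). MT-CO3, a further core subunit (9207 to 9990), had 5275 against 4367 FPKM, a ratio of 1.21 (1.20 to 1.22). The 3 log2 ratios lay between 0.27 and 0.31. Relative to each other the oxidase mRNAs differed little, with 3.23 against 3.28 MT-CO1 reads per MT-CO2 read.

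The mRNAs of the ATP synthase, which uses the proton gradient to make ATP, had the highest log2 ratios of the 13. MT-ATP6, the subunit that forms the proton path (ENSG00000198899, 8527 to 9207), had 5155 against 3766 FPKM, from 68038 against 49701 reads. Its ratio was 1.37 (1.35 to 1.38), and 1.30 with own totals. MT-ATP8, a small membrane subunit (8366 to 8572), had 457 against 324 FPKM, from 1834 against 1298 reads, a ratio of 1.41 (1.32 to 1.52). ATP synthase reads per complex I read were 0.247 against 0.212, a double ratio of 1.17 (1.15 to 1.18) that does not depend on scaling.

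MT-ATP8 and MT-ATP6 share 46 bases in different reading frames, 8527 to 8572, shown because reads over them belong to both genes. The start codon of MT-ATP6 and the stop codon of MT-ATP8 are in capitals.

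Overlap of MT-ATP8 and MT-ATP6: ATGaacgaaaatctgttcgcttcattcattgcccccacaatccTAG

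No source used here says how reads over such an overlap were assigned. The level of MT-ATP8, the lowest of the mRNAs in both libraries, therefore need not be its true level beside MT-ATP6. The quotient of their reads was alike in both libraries, 0.0270 against 0.0261, with a double ratio of 1.03 (0.960 to 1.11) that was not distinguishable from 1 at this depth.

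Complex I, which takes electrons from NADH, was represented by 7 mRNAs, with log2 ratios from 0.10 to 0.43. MT-ND4 (10760 to 12137) had 4196 against 3590 FPKM and MT-ND4L (10470 to 10766) 3978 against 3292. Both encode membrane subunits and share 7 bases of sequence, and their ratios were 1.17 (1.16 to 1.18) and 1.21 (1.19 to 1.23). MT-ND3 (10059 to 10404) had 2031 against 1791 FPKM, a ratio of 1.13 (1.11 to 1.16). The first complex I genes after the rRNAs had the smallest differences of all mRNAs. MT-ND1 (3307 to 4262) had 1944 against 1780 FPKM, a ratio of 1.09 (1.08 to 1.11). MT-ND2 (4470 to 5511) had 1944 against 1818 FPKM, a ratio of 1.07 (1.05 to 1.08), and with own totals the interval around its 1.01 (0.999 to 1.03) took in 1.

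The last complex I genes along the genome differed more. MT-ND5, a proton-pumping subunit (12337 to 14148), had 1227 against 926 FPKM, from 43087 against 32526 reads, a ratio of 1.32 (1.31 to 1.34). MT-ND6 (14149 to 14673), the mRNA encoded on the opposite strand, had 1543 against 1142 FPKM, a ratio of 1.35 (1.32 to 1.38). No source used here gives the strand setting of the authors' counting, so reads of MT-ND6 and of transcripts from the other strand across it cannot be told apart. MT-ND6 reads per MT-ND5 read were 0.364 against 0.357, a double ratio of 1.02 (0.992 to 1.05) that included 1. MT-CYB, cytochrome b, the mitochondrially encoded subunit of complex III (14747 to 15887), had 1544 against 1339 FPKM, a ratio of 1.15 (1.14 to 1.17). Its ratio thus lay below those of MT-ND5 and MT-ND6, with MT-ND5 reads per MT-CYB read at 1.26 against 1.10, a double ratio of 1.15 (1.12 to 1.17).

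The ratio of the mRNAs did not follow their order along the plus strand (Spearman's rho 0.14 over 12 genes) or their level (rho -0.10 over 13). These correlations describe genes of a pair of libraries that share precursors and are not independent. The order of the mRNA levels was nearly the same in both libraries, with a rho of 0.98. In the library labelled TRIP13 shRNA it ran MT-CO1, MT-CO2, MT-CO3, MT-ATP6, MT-ND4, MT-ND4L, MT-ND3, MT-ND1, MT-ND2, MT-CYB, MT-ND6, MT-ND5 and MT-ATP8. The pairs MT-ND1 and MT-ND2, and MT-CYB and MT-ND6, had overlapping counting intervals there. In the control library MT-ND2 stood ahead of MT-ND3 and MT-ND1, and the intervals of neighbours among these 3 overlapped. In shares of mRNA reads, MT-CO1 made up 31.5% against 31.2%, MT-ATP6 8.56% against 7.60% and MT-ND2 4.94% against 5.61%.

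**Figure D2:**
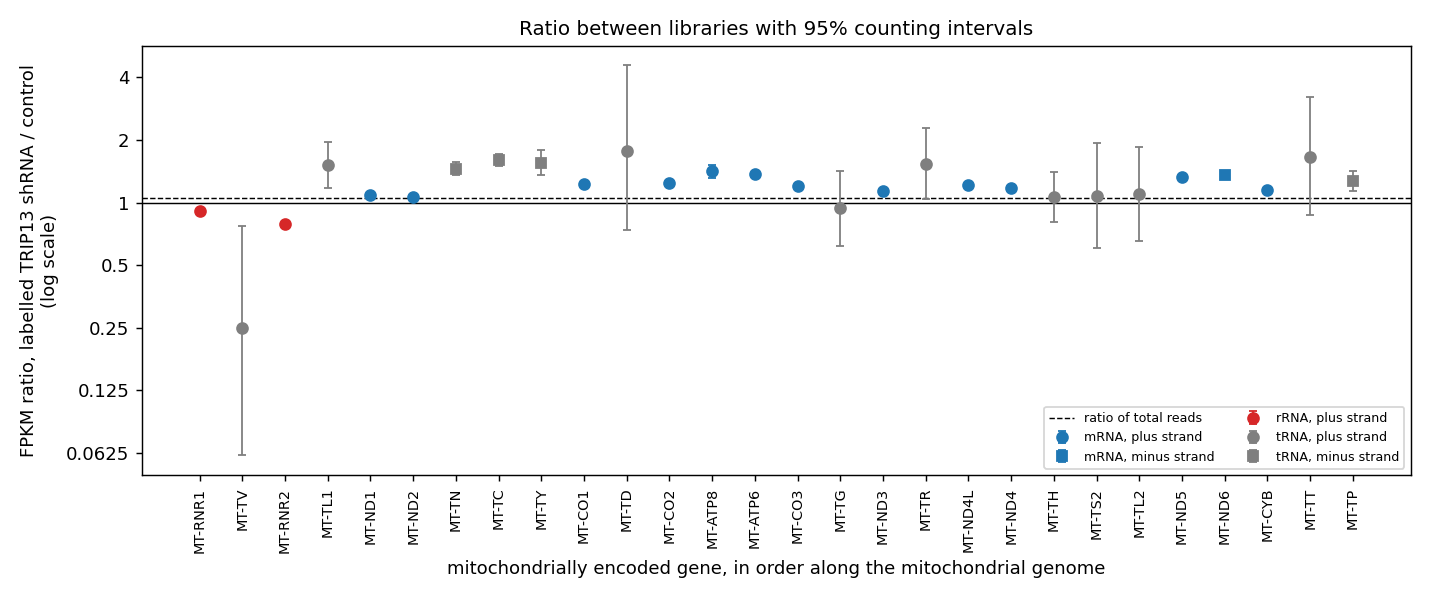
FPKM ratio of the library labelled TRIP13 shRNA to the control (log scale) with 95% counting intervals for 28 members in genome order, circles for the plus strand and squares for the minus strand, with the solid line at 1 and the dashed line at the depth ratio of 1.05. Both rRNAs lie below 1 and the mRNAs above it, while most plus-strand tRNAs have wide intervals because they hold few reads.

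Both rRNAs stood lower under the TRIP13 shRNA label, the longer of them more so. MT-RNR2, the 16S rRNA of the large ribosomal subunit (ENSG00000210082, chromosome MT, 1671 to 3229, plus strand), had 2342 against 2978 FPKM, from 70768 against 89992 reads. Its ratio was 0.786 (0.779 to 0.794), a log2 ratio of -0.35. MT-RNR1, the 12S rRNA of the small subunit (ENSG00000211459, 648 to 1601), had 285 against 313 FPKM, from 5277 against 5792 reads, a ratio of 0.911 (0.878 to 0.946). Both remained below 0 on the log2 scale under each scaling tried. Of 13128 genes of every biotype whose mean FPKM reached 1, 7465 (56.9%) lay above 0. Most of these 13128 were protein-coding, and of those 10671 genes 6429 (60.2%) lay above 0. Among the other biotypes the share above 0 was therefore below 56.9%.

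Both rRNAs form part of the ribosome in equal number, but their FPKM values differed 8.21-fold in the library labelled TRIP13 shRNA and 9.51-fold in the control. MT-RNR2 also stood apart from MT-ND1, which follows it along the genome after MT-TL1. There were 1.965 MT-RNR2 reads per MT-ND1 read against 2.73, so the control quotient was 1.39-fold the other (1.36 to 1.41).

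No source used here says how rRNA was depleted or mRNA selected, and rRNA levels depend on that step. Nuclear rRNA genes and their pseudogenes held 208 against 238 reads in all, a ratio of 0.874 (0.722 to 1.06). Other noncoding RNAs, named here after their values were seen, were mostly lower too. RN7SL2, the RNA of the signal recognition particle, had 2035 against 4599 reads and MALAT1, a nuclear RNA, 5680 against 13652, and snRNA genes together had 612 against 860. Small nucleolar RNAs had 752 against 768, a ratio of 0.979 (0.884 to 1.08) that included 1. The part of library preparation in the rRNA difference was not tested.

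The 22 tRNAs spanned a far wider range of levels than the mRNAs, and 13 of them held 20 or more reads over both libraries. Short genes such as tRNAs are poorly captured by libraries of longer fragments, and a read that also touches a neighbour may be lost, so their FPKM values need not be levels of mature tRNA. Of the 22, 16 lay above 0 on the log2 scale, 5 below and 1 at 0, with a median of 0.53. Beside them, 56.9% of genes of every biotype, most of them protein-coding, lay above 0. With the median ratio of protein-coding genes set to 1, 13 of the 22 lay above 0. That scaling puts about as many protein-coding genes above 0 as below (median log2 ratio -0.0017). For so few genes, 13 of 22 is near that split. The 4 most abundant were all on the minus strand and held most of the tRNA reads.

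MT-TC, the cysteine tRNA, had 1753 against 1093 FPKM, from 2242 against 1398 reads, a ratio of 1.60 (1.499 to 1.72). MT-TN, the asparagine tRNA, had 1284 against 881 FPKM, a ratio of 1.46 (1.36 to 1.57). MT-TY, the tyrosine tRNA that adjoins MT-TC, had 419 against 270 FPKM, a ratio of 1.55 (1.35 to 1.78). These genes lie in a cluster between MT-ND2 and MT-CO1, and their ratios were above those of both neighbouring mRNAs. MT-TP, the proline tRNA beside the control region, had 559 against 439 FPKM, a ratio of 1.28 (1.14 to 1.42). MT-TC reads per MT-TN read were 1.23 against 1.12, a double ratio of 1.10 (0.997 to 1.21) that included 1.

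The other minus-strand tRNAs were nearly empty. MT-TE, the glutamate tRNA, had 12 against 7 reads, MT-TS1, a serine tRNA, 3 against 1 and MT-TA, the alanine tRNA, 2 against 1. MT-TA lies next to MT-TN, which held 1816 against 1246 reads. The 3 nearly empty genes and MT-TQ show that the high sum over minus-strand tRNA genes, 5348 against 3576 reads, came from 4 of them.

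Plus-strand tRNAs held 520 against 435 reads in all, a ratio of 1.20 (1.05 to 1.36) whose interval takes in the depth ratio, and with own totals the ratio was 1.13 (0.996 to 1.29). Reads in minus-strand tRNA genes per read in plus-strand ones were 10.3 against 8.22, a double ratio of 1.25 (1.09 to 1.43). The strand is that of the annotated gene. As the strand setting of the counting is not given, reads of transcripts from the other strand across these genes cannot be told apart. MT-TL1, the leucine tRNA between MT-RNR2 and MT-ND1, had 111 against 72.9 FPKM, from 161 against 106 reads, a ratio of 1.52 (1.18 to 1.96). It was thus higher in the library in which MT-RNR2 just upstream was lower. MT-TR, the arginine tRNA, had 54.8 against 35.7 FPKM, a ratio of 1.53 (1.04 to 2.28), whose interval takes in the depth ratio.

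The remaining plus-strand tRNAs with 20 or more reads, other than MT-TV, could not be distinguished from 1 at their depth. MT-TH, the histidine tRNA, had 113 against 106 reads, MT-TG, the glycine tRNA, 48 against 51 and MT-TL2, the other leucine tRNA, 34 against 31. MT-TS2, the other serine tRNA, had 27 against 25 reads, MT-TT, the threonine tRNA, 28 against 17 and MT-TD, the aspartate tRNA, 16 against 9. MT-TH, MT-TS2 and MT-TL2 are adjacent, and their ratios lay between 1.07 and 1.10.

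A 2-fold difference was passed by 1 tRNA in the higher direction and by 4 in the lower direction. The same rule was passed by 2.5% (higher) and 5.61% (lower) of genes of every biotype whose mean FPKM reached 1. Most of these were protein-coding, with 2.17% (higher) and 4.19% (lower), so genes of other biotypes passed it more often than all genes together. The tRNAs were counted without that filter, and 20 of the 22 reached it. All 5 tRNAs past the rule had 20 reads or fewer over both libraries. MT-TI had 14 against 5 reads, with an interval of 0.953 to 9.93 that included 1. MT-TV, which lies between both rRNAs, had 4 against 16 reads, a ratio of 0.250 (0.0608 to 0.775). MT-TM had 1 against 9 reads, a ratio of 0.111 (0.00253 to 0.802). MT-TW had 2 against 7 reads, and MT-TK 2 against 8, with intervals that reached 1.501 and 1.25. MT-TF, the phenylalanine tRNA at the start of the rRNA transcript, had 1 against 0 reads, below the floor of 3 reads, and no ratio is given for it.

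The stretch of genome on which a read could touch only the tRNA in question was 105 bases for MT-TN and 96 for MT-TC, and between 59 and 77 for most others. MT-TP and MT-TF border the control region, which holds no annotated gene, and had 616 and 647 such bases on the linear reference. Across the 22 tRNAs this length and the number of reads were hardly related, with a Spearman's rho of 0.08 that is given as a description. MT-TK also had 96 such bases and held 10 reads. The GC content of the tRNAs ran from 23.1% for MT-TR to 49.3% for MT-TS1.

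Segments of the mitochondrial genome have been copied into the nuclear chromosomes, and reads can be split between such copies and the original. Of 407 nuclear copies taken by name, pseudogenes and MTRNR2L genes, 56 had reads, in all 6498 against 5455. On chromosome 1 of hg38, 3 neighbouring copies held 98.6% against 98.0% of these. MTATP6P1 (633696 to 634376) had 3298 against 2709 reads, a ratio of 1.22 (1.16 to 1.28). MTND2P28 (629640 to 630683) had 2245 against 1902, a ratio of 1.18 (1.11 to 1.26), and MTCO1P12 (631074 to 632616) had 862 against 734, a ratio of 1.17 (1.06 to 1.30).

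The copies are 98.5%, 98.4% and 98.7% identical to MT-ATP6, MT-ND2 and MT-CO1. A stretch of MT-ATP6 (chromosome MT, 8647 to 8726) is shown with the same stretch of its copy, to let a reader see how few bases separate them. The 4 differing bases are in capitals.

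MT-ATP6: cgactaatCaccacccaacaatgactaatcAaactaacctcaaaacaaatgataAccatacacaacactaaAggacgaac
MTATP6P1: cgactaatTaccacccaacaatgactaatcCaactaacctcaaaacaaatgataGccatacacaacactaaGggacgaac

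Adding the counted reads of a copy to its member moved the ratio little. The ratio of MT-ATP6 was 1.36 with its copy, that of MT-ND2 1.07 and that of MT-CO1 1.23. No source used here says how reads that match both equally were counted. Reads left out of both would not return in these sums, so the sums do not bound the influence of the copies. The copy made up 4.62% against 5.17% of the summed reads for MT-ATP6, 5.41% against 4.92% for MT-ND2 and 0.343% against 0.358% for MT-CO1. MTRNR2L genes, copies of the 16S rRNA region, held 14 against 36 reads in all, a ratio of 0.389 (0.194 to 0.739).

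**Figure D3:**
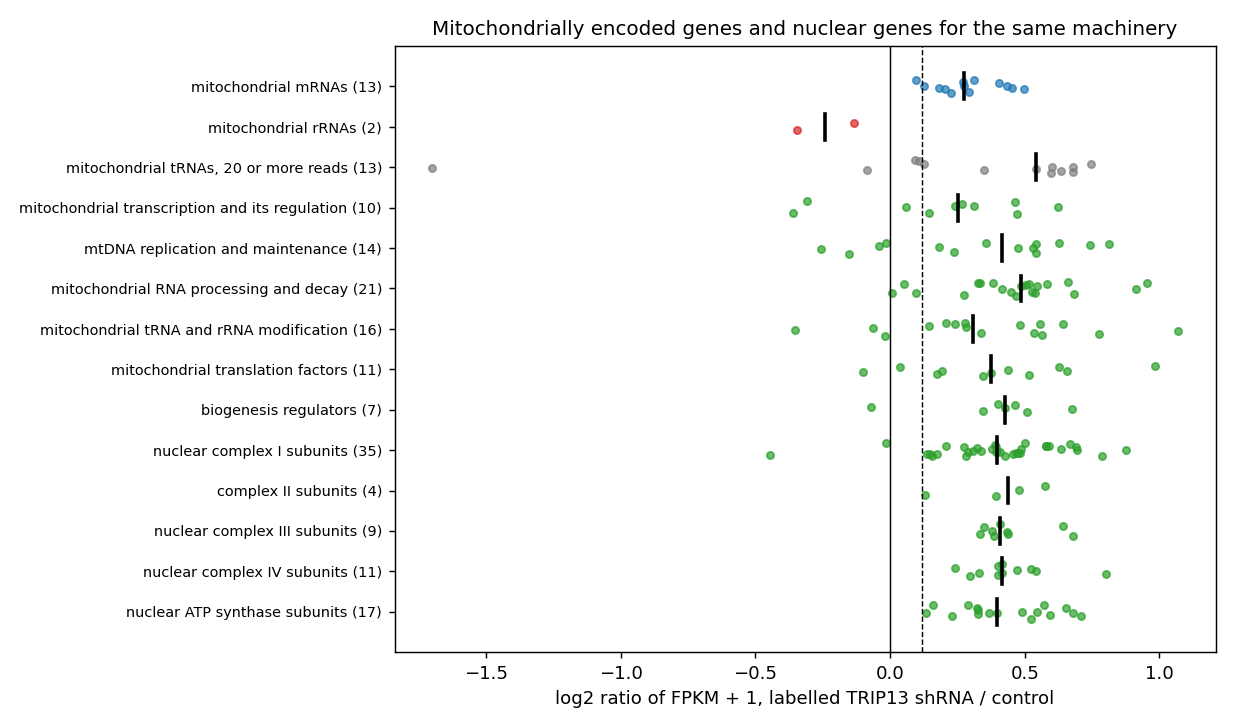
Log2 ratio of FPKM + 1 (library labelled TRIP13 shRNA over control) for mitochondrially encoded genes by class and for nuclear genes that build or serve the same machinery, with 1 point per gene, a bar at each median and the number of genes in brackets. The dashed line marks the median of 0.12 over protein-coding genes, and both rRNAs lie left of it while the medians of the mRNAs and of all nuclear lists lie to its right.

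The nuclear partners of the mitochondrial mRNAs were also higher in the library labelled TRIP13 shRNA. The median log2 ratio of nuclear complex I subunits was 0.40, with 33 of 35 tested genes above 0, beside 0.23 for the 7 mitochondrial ones. The nuclear complex III subunits had a median of 0.41 (9 of 9 above 0), beside 0.21 for MT-CYB. The complex IV lists had 0.41 (11 of 11) and 0.29, and the ATP synthase lists 0.40 (17 of 17) and 0.48. The 4 subunits of complex II, the respiratory complex that has no mitochondrially encoded part, had a median of 0.44. No member of these 5 nuclear lists was 2-fold higher or lower, beside 2.17% (higher) and 4.19% (lower) of protein-coding genes. These are descriptions beside the median of 0.12 and the 60.2% above 0 of protein-coding genes. No difference between the lists was tested.

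Within these lists the ends were NDUFS8 (62.8 against 33.8 FPKM) and NDUFB2 (37.1 against 21.1) at the top of complex I, and NDUFV2 (1.01 against 1.73) and NDUFA6 (61.3 against 62.0) at its lower end. In complex II, SDHA and SDHD had 26.3 against 17.3 and 13.9 against 9.69 FPKM, and SDHC had 10.8 against 9.78. UQCR11 and UQCRQ led complex III with 12.9 against 7.68 and 128 against 81.3 FPKM, and UQCRH had its lowest log2 ratio, 0.33. COX5A (86.9 against 49.4 FPKM) and COX8A (314 against 215) led complex IV, and COX6B1 (154 against 130) was lowest. In the ATP synthase, ATP5MC1 (50.1 against 30.3 FPKM) and the catalytic subunit ATP5F1B (442 against 275) led, and ATP5MC2 (48.2 against 43.9) was lowest.

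The 10 genes listed under mitochondrial transcription and its regulation had a median log2 ratio of 0.25. Of these, 8 lay above 0, and none passed the 2-fold rule. With so few genes this is near the 60.2% above 0, and the 2.17% and 4.19% past the rule, of all protein-coding genes. With the median ratio of protein-coding genes set to 1, 7 lay above 0, beside about as many protein-coding genes above 0 as below. TFB2M, which opens the promoter for the mitochondrial RNA polymerase, had 18.3 against 11.5 FPKM, a ratio of 1.59 (1.40 to 1.80). MGME1, a nuclease of mitochondrial DNA, had 13.7 against 9.59 FPKM. TFB1M, which methylates the 12S rRNA, had 8.15 against 10.7 FPKM, a ratio of 0.759 (0.668 to 0.862), and MTERF2 had 1.62 against 2.25. The polymerase POLRMT (24.98 against 22.5 FPKM) and the packaging factor TFAM (15.2 against 12.5), named here after their values were seen, lay between. For replication and maintenance of the genome 10 of 14 genes lay above 0, also near the 60.2% of protein-coding genes, with a median of 0.42 beside 0.12. TOP3A, which separates linked daughter circles, had 10.2 against 5.39 FPKM and the nuclease DNA2 5.28 against 2.76. MPV17, an inner membrane protein needed to keep mitochondrial DNA, had 15.3 against 18.5 FPKM and TOP1MT, a topoisomerase, 5.71 against 6.46.

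All 21 tested genes of mitochondrial RNA processing and decay lay above 0, beside 60.2% of protein-coding genes, with a median of 0.49. With the median ratio of protein-coding genes set to 1, 18 of the 21 did so, beside about as many protein-coding genes above 0 as below. ELAC2, which cuts the 3′ ends of tRNAs out of the precursor, had 18.7 against 9.19 FPKM, a ratio of 2.04 (1.90 to 2.19). PNPT1, the ribonuclease of mitochondrial RNA turnover, had 11.2 against 5.50 FPKM, a ratio of 2.04 (1.84 to 2.27). On the log2 scale with 1 added both stayed short of the 2-fold rule, at 0.95 and 0.91. TRNT1, which adds the CCA end to tRNAs, had 4.55 against 4.36 FPKM, and PTCD2 had 2.55 against 2.53.

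Of the genes that modify mitochondrial tRNA and rRNA, 13 of 16 lay above 0, beside 60.2% of protein-coding genes, with a median of 0.31. MRM2, a methyltransferase of the 16S rRNA, had 17.8 against 7.95 FPKM, a ratio of 2.24 (1.997 to 2.51) whose interval reaches below 2. Its log2 ratio of 1.07 passed the 2-fold rule as deposited but was 0.94, short of it, with the median ratio of protein-coding genes set to 1. QTRT1, which takes part in placing queuine in tRNAs, had 16.6 against 9.25 FPKM. TRMU, which thiolates tRNAs, had 4.59 against 6.14 FPKM, a ratio of 0.747 (0.682 to 0.819), and TRMT5, a tRNA methyltransferase, 5.05 against 5.31. Translation factors had a median of 0.38 with 10 of 11 above 0, beside the same 60.2%. GFM1, the elongation factor that moves the ribosome along the mRNA, had 12.3 against 5.73 FPKM and TACO1, which promotes MT-CO1 translation, 22.4 against 13.8. The initiation factor MTIF3 had 8.50 against 9.17 FPKM and the release factor family member MTRF1 5.23 against 5.06. Among regulators of mitochondrial biogenesis 6 of 7 lay above 0, with a median of 0.43. With so few genes this count is not far from the 60.2% of protein-coding genes. PPRC1, a coactivator, had 22.9 against 14.0 FPKM, ESRRA, a nuclear receptor, 39.8 against 27.7, NRF1 6.24 against 4.70 and GABPA 8.44 against 8.91.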

How the data were processed

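Per the labels' protocols, total RNA was extracted with Trizol and made into libraries with the NEBNext Ultra kit, 1 library per group. The authors deposited FPKM values for 58735 genes. Tools named in the submitters' processing notes are edgeR, featureCounts 1.5.0-p3 and HISAT2 2.0.5, with the build hg38 and no roles or settings. FPKM multiplied by gene length gave whole multiples of 51.6 for 100% of values, within 0.001 of a read (or 1 in 1000000 of the value, where larger). These are the reads quoted, and the step matches a common total of 19380571.

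Differences were log2 ratios of FPKM + 1, with no filter on members and a mean FPKM of 1 for other genes. Ratios carry 95% exact (Clopper-Pearson) intervals and double ratios Woolf intervals. The floor was 3 reads. Named genes were all members with reads (tRNAs in full from 20 reads), up to 2 at each end of each nuclear list and the 3 nuclear copies with most reads. Members and lists were chosen with earlier results of these data known. The recovery of reads was tested on simulated data. Alternatives were 4 scalings, 2 pseudocounts, 2 filters and, added after seeing the data, summed nuclear copies. Sequences are GENCODE release 29 transcripts. Biopython 1.88, matplotlib 3.10.9, scipy 1.17.1, pandas 2.3.3 and numpy 2.4.6 were run under Python 3.11.15.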

Additional observations from a re-analysis of the deposited data

How the results depend on the processing

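No paired analysis was possible because there is 1 library on either side, and for the same reason no library could be left out. In the order own totals, median ratio of 1, totals without mitochondrial and the 50 most abundant nuclear genes, and TPM, the log2 ratio of all member reads (0.22 as deposited; summed TPM in the last case) was 0.14, 0.077, 0.14 and 0.15. The median log2 ratio of the mRNAs was 0.20, 0.13, 0.19 and 0.16, and that of the rRNAs -0.32, -0.38, -0.32 and -0.36. That of the tRNAs, 0.53, stayed between 0.26 and 0.57 under all alternatives. The log2 ratio of nuclear copies (0.25) was 0.18, 0.11 and 0.17 under the first 3. The median of all nuclear genes for mitochondrial gene expression (0.40) was 0.27 with a median ratio of 1, 0.29 as TPM and 0.30 with a pseudocount of 5. The count of members past the 2-fold rule, 5, became 2 with a pseudocount of 5 1 among members with 20 or more reads, and 7 as TPM or with a pseudocount of 0.1. MT-ND1 turned to -0.013 and MT-ND2 to -0.044 with a median ratio of 1, and MT-ND2 to -0.020 as TPM, since both settings lower the log2 ratio of each member with 20 or more reads. The tRNAs MT-TH, MT-TS2 and MT-TL2, whose intervals include 1, also changed sign, to -0.047, -0.028 and -0.0067 with a median ratio of 1, and MT-TH and MT-TS2 to -0.024 and -0.0054 as TPM. Apart from the sign changes of MT-ND1 and MT-ND2, 109 alternative values of single members, these tRNAs included, lay inside the counting interval and 59 outside. Depth limits the tRNAs outside the 4 most abundant.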
